A study of Drosophila melanogaster with 12 samples.

Results

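Gene expression was compared between regenerating and control wing discs at the first collection, 0 h after apoptosis had been induced, over the genes with a value above 0 in both 0 h columns of the authors' table of merged replicates. These were 8391 of the 17158 genes in the table, or 48.9%. Of the rest, 7236 were listed at 0 in both columns, 229 at 0 in control discs only (median 0.52 FPKM in regenerating discs) and 1302 at 0 in regenerating discs only (median 0.295 FPKM in control discs). FPKM, fragments per kilobase of transcript scaled to the size of the library, is a level per transcript length.

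The wing disc is the larval epithelium that forms the adult wing and the surrounding body wall. The study sequenced polyA RNA of discs from Drosophila melanogaster larvae of the third instar at 0, 15 and 25 h, in 12 libraries of 40 discs each. At 0 h there were 2 libraries of regenerating discs, in which cell death had been induced, and 2 libraries of undamaged control discs held in the same conditions without it. The labels call regeneration and control separate genotypes without describing either, so the driver, the means of inducing death, the genetic background and the share of cells killed are not known here, and genotype and regeneration cannot be told apart. Each group has a single merged column, which allows neither a replicate spread nor a test, and every level below is the authors' merged value. In a pair of values the first is for control and the second for regenerating discs. The number of reads behind a value is unknown. In discs measured in bulk, fewer cells of a type and less RNA per cell cannot be told apart.

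When part of a disc dies, the surviving epithelium proliferates and is patterned again. In flies, the death activators reaper, hid and grim release caspases from the inhibitor Diap1. Dying and wounded cells are known for signalling through the Jun kinase (JNK) pathway, which acts through the AP-1 factors Jra and kay, for reactive oxygen species, and for JAK/STAT cytokines that drive growth. The genes are taken here in that order: death machinery, stress signalling, detoxification and heat shock, then tissue patterning and growth, and last the mitochondrial genome and genes of other tissues.

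A gene was called higher or lower where the ratio of FPKM + 1 was at least 2-fold under each of 3 scalings (values as deposited, the median ratio set to 1, and both columns brought to the same sum), and where 1 or both columns reached 1 FPKM. The filter left 7957 of the 8391 genes; a gene is called tested below where it passed this filter and was compared by the rule, which involves no statistical test. Of these, 110 (1.38%) were higher and 63 (0.792%) lower in regenerating discs. The regenerating column was shifted as a whole: the median log2 ratio was 0.47, 89.5% of the genes lay above 0, and the middle range from the 25th to the 75th percentile ran from 0.26 to 0.69. Because of this shift the rule asks for 2-fold above the median ratio for a higher call and for 3.14-fold below it for a lower call. The balance of higher and lower calls depended on the scaling, with 546 (6.86%) higher and 71 (0.892%) lower as deposited, 110 (1.38%) and 181 (2.27%) about the median ratio, and 881 (11.1%) and 63 (0.792%) at the same sum.

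**Figure D1:**
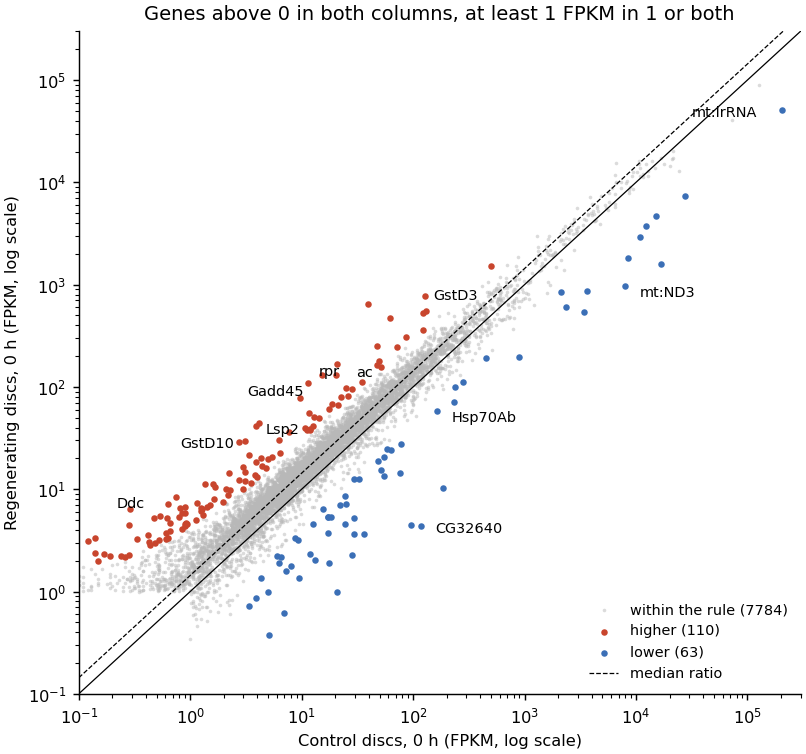
Authors' merged FPKM of each gene in control (x axis) and regenerating discs (y axis) at 0 h, both on log scales, for the 7957 genes that passed the filter on low values. The solid line marks equal values and the dashed line the median ratio; the 110 higher genes (red) and 63 lower genes (blue) lie on either side of a cloud that sits above the solid line.

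The higher genes were mostly low in control discs. The 110 higher genes had a median of 2.74 FPKM in control against 11.9 FPKM in regenerating discs. The 63 lower genes had medians of 29.8 and 7.05 FPKM. The medians of all 7957 genes were 11.1 and 16.2 FPKM. Of the higher genes 84, and of the lower genes 59, reached 5 FPKM in 1 or both columns. Of the 110 higher genes, 37 were below 1 FPKM in control discs and passed the filter through the regenerating column alone, and 5 of the 63 lower genes passed through the control column alone. Nuclear protein-coding genes made up 85 of the higher and 39 of the lower genes. The gene nearest inside the limit for a higher call was CG42808, at a log2 ratio of 1.005 about the median, and the nearest outside was mbf1 at 0.994. The nearest lower genes, scaled to the same sum, were Mp20 inside at -1.03 and CG33774 outside at -0.9997. Another annotated gene overlapped an exon of 41 higher and 24 lower genes, and the sources used here do not say whether the counting used strand, so reads of such pairs may not be told apart.

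The death activator reaper (rpr, FBgn0011706, chr3L:18397535-18398435) was among the genes with the highest ratios. It stood at 11.5 FPKM in control against 108 FPKM in regenerating discs, which is a log2 ratio of 3.14, or 2.62 about the median. The 0 h regenerating value was the highest of the 6 columns by a wide margin, since the values were 24.6 and 21.3 FPKM at 15 h and 29.5 and 15.2 FPKM at 25 h. No exon of another gene overlaps rpr. The means of inducing death is not known here, so the source of the rpr RNA cannot be told.

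The other 11 members of the 12-gene cell death list that passed the filter stayed within the limits, so 1 of 12 was higher and none lower. Of all genes, 1.38% were higher and 0.792% lower. The second activator, hid, was at 9.78 and 9.61 FPKM. The third, grim, was listed at 0 in both columns, and sickle (skl), a further gene of this family, at 0.2 and 0 FPKM. The inhibitor Diap1 was at 119.5 and 194 FPKM. Among the caspases, the initiator Dronc was at 27.9 and 34.4 FPKM, and the effectors Dcp-1 and Drice were at 18.7 and 30.1 FPKM and 29.8 and 61.1 FPKM. The Drice log2 ratio of 1.01 as deposited became 0.50 about the median. The list's median lay 0.07 below that of all genes.

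None of the 19 genes of the TNF and JNK cascade was called higher (1.38% of all genes) or lower (0.792%). Their median ratio was 0.09 above that of all genes on the log2 scale, and 14 of the 19 lay above the all-gene median. As deposited, 3 members exceeded 2-fold: Jra, the Jun component of AP-1, at 27.5 and 63.8 FPKM, the TNF receptor wengen (wgn) at 5.35 and 11.9 FPKM and the adaptor Traf4 at 1.65 and 4.4 FPKM. About the median their log2 ratios were 0.68, 0.55 and 0.62. Exons of Jra overlap those of RpLP0-like. The Fos component kay was at 18.5 and 30.7 FPKM.

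Of 10 reported JNK targets, 2 were higher, rpr and Gadd45, against 1.38% of all genes. Since rpr is also the higher gene of the cell death list, the 2 lists share that value. Gadd45 (FBgn0033153, chr2R:7249161-7250655), a stress-induced gene related to mammalian growth arrest and DNA damage genes, was at 14.5 FPKM in control against 49.9 FPKM in regenerating discs, which is a log2 ratio of 1.72. It was at 23.5 and 33.6 FPKM at 15 h and 29.5 and 23.9 FPKM at 25 h, so the 0 h regenerating column was the highest and the 0 h control column the lowest of the 6. The JNK phosphatase puckered (puc) was at 4.55 and 8.56 FPKM, the matrix metalloproteinase Mmp1 at 12.5 and 17.2 FPKM and its inhibitor Timp at 3.87 and 8.72 FPKM, all within the limits. Ilp8, the relaxin-like hormone that delays metamorphosis after disc damage, was at 1.55 FPKM in regenerating discs but at 0 in the control column, and is therefore outside the 8391 genes.

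None of 7 JAK/STAT genes was called higher (1.38% of all genes) or lower (0.792%). All 7 lay above the all-gene median, by a median of 0.20. The receptor domeless (dome) was at 7.71 and 16.2 FPKM and the feedback inhibitor Socs36E at 7.62 and 16.1 FPKM. The ligand upd1 was at 1.23 and 2.55 FPKM.

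The glutathione transferases, enzymes that conjugate glutathione to reactive compounds, held 4 higher genes among 26 tested, against 1.38% of all genes, and no lower gene. The list's median was within 0.01 of the all-gene median. GstD3 (FBgn0010039, chr3R:12373068-12373813) was at 130.1 FPKM in control against 558 FPKM in regenerating discs, which is a log2 ratio of 2.09. Its neighbour GstD4, at 0.66 and 3.92 FPKM, passed the filter through the regenerating column alone. GstD10, in the same cluster on chromosome arm 3R, was at 3.39 and 21.7 FPKM. GstE3, in the epsilon cluster on 2R, was at 2.72 and 12.3 FPKM.

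The 4 enzymes differed in their later course. GstD10, GstD4 and GstE3 all had a value of 0 in 25 h control discs, and in the other columns they were lower than in regenerating discs at 0 h. GstD3 was abundant throughout, at 234 and 365 FPKM at 15 h and 277 and 305 FPKM at 25 h, so its 0 h regenerating value exceeded the 25 h control value by about 2-fold. Most of the delta cluster stayed within the limits: GstD1, its most abundant member, was at 1291 and 2959.8 FPKM (log2 ratio 1.2, 0.68 about the median), GstD2 at 1.95 and 2.65 FPKM and GstD9 at 32.3 and 73.2 FPKM. GstD5 and GstD6 were at 0 in the control column while regenerating discs had 2.42 and 0.775 FPKM. None of 22 other oxidative stress genes was called higher (1.38% of all genes) or lower (0.792%). Superoxide dismutase Sod1 was at 1480.1 and 1518 FPKM, and the Nrf2 homologue cnc at 8.26 and 8.89 FPKM.

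Cytochrome P450 genes, monooxygenases of hormone and toxin metabolism, went both ways, with 1 of 22 higher and 2 lower, against 1.38% and 0.792% of all genes. Cyp6g2, at 0.33 and 3.28 FPKM, passed the filter through the regenerating column alone and overlaps Cyp6g1. The adjacent genes Cyp4p1 and Cyp4p2 on 2R were at 11.9 and 2.34 FPKM and 54.3 and 13.4 FPKM. Later, Cyp4p2 was at 70.5 and 1.98 FPKM at 15 h and 35.4 and 0 FPKM at 25 h.

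Heat shock genes were lower in regenerating discs in 7 of 21 cases and higher in none, against 0.792% of all genes called lower. Their median lay 0.39 below that of all genes. The inducible Hsp70 chaperone is encoded by near-identical copies, and the division of reads among them is uncertain. Hsp70Ab (FBgn0013276, chr3R:11958535-11960909) was at 164 and 57.6 FPKM, Hsp70Bb at 48.0 and 18.7 FPKM, Hsp70Bbb at 36.6 and 3.65 FPKM and Hsp70Ba at 6.97 and 0.62 FPKM, all called lower. Hsp70Ba passed the filter through the control column alone. Hsp70Bc, at 7.22 and 3.21 FPKM, stayed within the limits and Hsp70Aa was listed at 0 in both. Summed over the 6 copies, the level was 263 FPKM in control against 83.8 FPKM in regenerating discs (log2 ratio -1.64).

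The same sum went the other way later. It was 1.48 FPKM in control against 43.0 FPKM in regenerating discs at 15 h, and 111 and 305 FPKM at 25 h. The control discs at 0 h thus had the highest summed level of the 3 control columns. Hsp68, a related inducible gene, was at 33.0 and 14.7 FPKM at 0 h. It was lower by more than 2-fold as deposited and about the median ratio but not at the same sum, so it was not called. Of the heat shock list, 8 genes were lower as deposited and 9 about the median ratio, against the 7 called.

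The remaining 3 lower heat shock genes form 1 block on 3L. Hsp67Bc, CG4456 (older symbol Hsp67Bb) and Hsp22 were at 6.21 and 1.9 FPKM, 29.8 and 3.63 FPKM and 78.7 and 27.8 FPKM. CG4456 and Hsp22 overlap in the annotation, so their values are not independent. The neighbouring small heat shock genes were within the limits, with Hsp23 at 10769.8 and 11410.3 FPKM, Hsp26 at 622 and 450.2 FPKM, Hsp27 at 1254 and 1756 FPKM and Hsp67Ba at 150.1 and 179 FPKM. l(2)efl, a small heat shock gene on 2R that the list did not hold and that was picked out after its values were seen, was lower at 12.7 and 4.55 FPKM. The constitutive chaperones lay on the other side: Hsp83 was at 205 and 531 FPKM and Hsc70-4 at 868 and 1848 FPKM, above 2-fold as deposited and at 0.84 and 0.57 about the median. The heat shock factor Hsf was at 16.8 and 27.4 FPKM.

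Among 14 genes of the unfolded protein and integrated stress responses, 1 was higher, against 1.38% of all genes. This was AsnS (FBgn0270926, chr3L:21173118-21174973), asparagine synthetase, a target of ATF4 in mammals, at 3.96 and 13.3 FPKM. Its levels were 5.23 and 12.5 FPKM at 15 h and 7.04 and 15.3 FPKM at 25 h, differences that did not pass the rule. Of the list, 11 of 14 lay above the all-gene median.

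**Figure D2:**
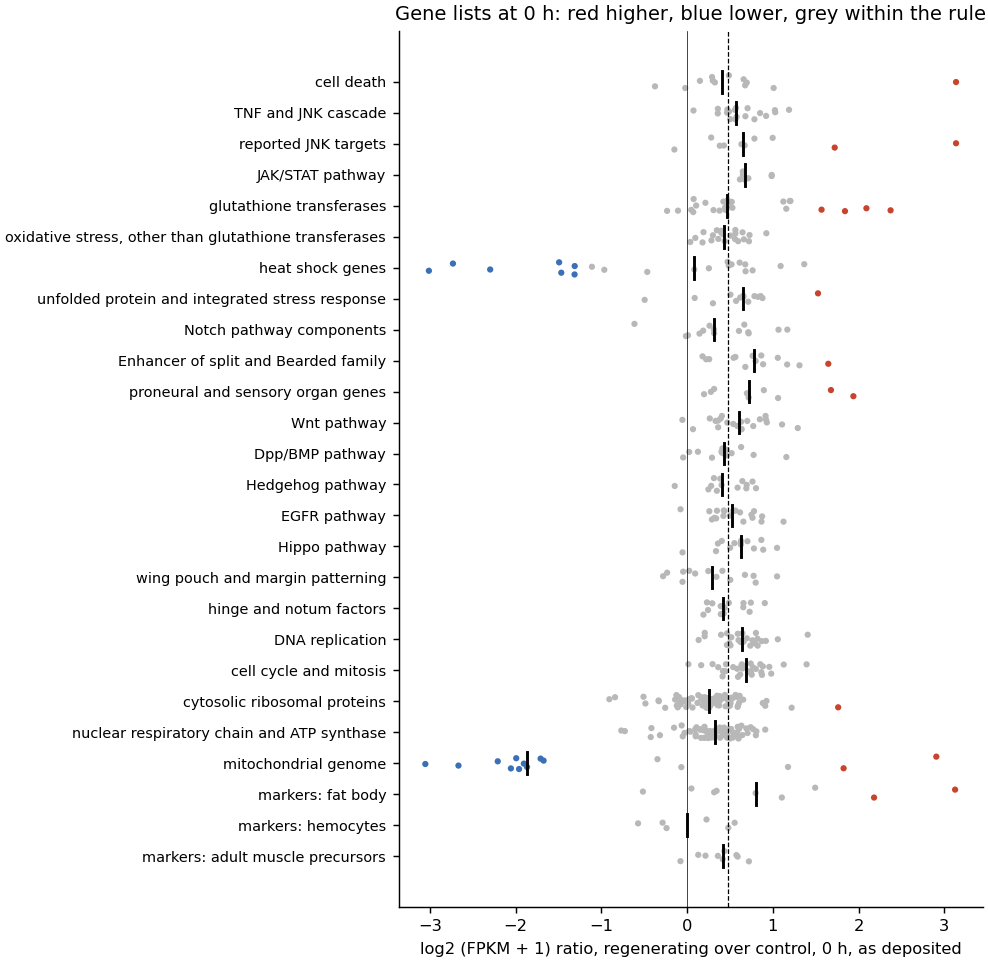
Log2 ratio of FPKM + 1, regenerating over control discs at 0 h as deposited (x axis), for each tested member of the gene lists (rows); each point is a gene, red where higher, blue where lower and grey within the limits. The mitochondrial genome and the heat shock genes hold most of the blue points, and the pathway lists are nearly all grey.

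Proneural genes, which give cells the competence to form sensory organs, held 2 higher genes among 9 tested, against 1.38% of all genes. Both are in the achaete-scute complex on the X chromosome: achaete (ac, FBgn0000022, chrX:370031-370947) was at 24.8 and 98.0 FPKM, and scute (sc) at 6.33 and 22.4 FPKM. The control value was the lowest of the 3 control columns for each of them, since ac was at 66.4 and 42.5 FPKM at 15 h and 71.2 and 23.9 FPKM at 25 h and sc at 15.0 and 29.0 FPKM at 15 h and 20.8 and 13.9 FPKM at 25 h. The 0 h regenerating value was the highest of the 6 columns for ac, by less than 1.5-fold over the 25 h control, but not for sc. daughterless (da), their partner, was at 9.82 and 21.6 FPKM.

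Of 14 tested genes of the Enhancer of split and Bearded family, targets of Notch signalling at the same stage, 1 was higher, against 1.38% of all genes. This was E(spl)m6-BFM, at 34.9 and 111 FPKM. The family's median lay 0.31 above that of all genes and 11 of 14 were above it. E(spl)m2-BFM was at 47.2 and 119 FPKM and E(spl)mdelta-HLH at 9.6 and 22.8 FPKM, both above 2-fold as deposited and at the same sum but not about the median ratio. None of 14 Notch pathway components was called higher (1.38% of all genes) or lower (0.792%), and their median was 0.16 below that of all genes. The corepressor groucho (gro) was at 22.9 and 49.1 FPKM and the gamma-secretase subunit pen-2 at 152 and 98.9 FPKM.

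No gene of the growth factor pathways passed the limits at 0 h. This held for 22 Wnt, 14 Dpp/BMP, 13 Hedgehog, 20 EGFR and 14 Hippo pathway genes. With 1.38% of all genes higher and 0.792% lower, lists of these sizes would be likely to hold few called genes or none. Among the members furthest from the median were sgg, the kinase of the Wnt destruction complex, at 9.51 and 24.7 FPKM, the Dpp receptor punt (put) at 20.8 and 47.6 FPKM, and the EGFR feedback inhibitor argos (aos) at 3.49 and 8.79 FPKM. The Hedgehog receptor patched (ptc) was at 3.62 and 6.84 FPKM, and scalloped (sd), the DNA-binding partner of Yorkie, at 21 and 44.5 FPKM. About the median their log2 ratios ran from 0.32 for ptc to 0.79 for sgg. Other members as far from the median lay below it. These were engrailed of the Hedgehog list (-0.63), rl of the EGFR list (-0.59), fj of the Hippo list (-0.56), and salr (-0.51) and salm (-0.36) of the Dpp/BMP list. The medians of the 5 lists, less that of all genes, ran from -0.07 (Hedgehog) to 0.15 (Hippo).

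Positional identity genes were likewise within the limits, with 0 of 14 pouch and margin genes and 0 of 16 hinge and notum genes called. Of all genes, 1.38% were higher and 0.792% lower. Pouch genes had a median 0.18 below that of all genes. The pouch gene rotund (rn) was at 10.4 and 8.70 FPKM, the dorsal selector apterous (ap) at 32.2 and 26.3 FPKM and the posterior selector engrailed (en) at 17.0 and 15.3 FPKM. caup of the Iroquois complex was at 7.87 and 15.6 FPKM and pannier (pnr), a notum factor, at 3.99 and 7.35 FPKM.

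Cell cycle genes sat slightly above the bulk without passing the rule. None of 30 cell cycle and mitosis genes and none of 27 DNA replication genes was called higher (1.38% of all genes) or lower (0.792%). In these lists 22 and 21 genes lay above the all-gene median, and the list medians were 0.21 and 0.17 above it. Aurora A kinase (aurA) was at 13.9 and 38 FPKM, the securin pim at 53.7 and 118 FPKM and the origin recognition subunit Orc6 at 12.1 and 33.6 FPKM. Aurora B kinase (aurB), also among the cell cycle members furthest from the median, lay below it. It was at 57.2 and 57.8 FPKM, a log2 ratio of -0.50 about the median. Of 17 genes of the DNA damage and p53 list 1 (against 1.38% of all genes) was higher, PCNA2, a second gene for the replication clamp, at 1.26 and 6.58 FPKM. The growth regulators Max, Mnt and Rheb were at 71.0 and 164 FPKM, 0.83 and 3.38 FPKM and 33.3 and 74.4 FPKM, and 0 of 21 Myc and growth genes was called.

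Genes of general metabolism moved with the bulk or a little below it. Cytosolic ribosomal protein genes had a median 0.22 below that of all genes, with 1 of 82 higher, against 1.38% of all genes. This was RpL7-like, at 71.3 and 244 FPKM, which overlaps CG34164. The members furthest below the median ratio included RpL38 and RpL39, at 24462 and 13037 FPKM and 72855 and 40649 FPKM. None of 71 mitochondrial ribosomal protein genes, 34 proteasome genes, 12 glycolytic genes or 32 tRNA synthetase genes was called higher (1.38% of all genes) or lower (0.792%). Short protein-coding genes as a class lay low: 109 genes with under 500 bases of exon had a median log2 ratio of -0.09, against 0.52 for 2434 genes of 2000 to 4000 bases. Across 7474 nuclear protein-coding genes the rank correlation of ratio with exonic length was 0.09, as a description across genes.

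The mitochondrial genome had the lowest median of the 48 lists. Of its 37 genes, 15 were above 0 in both columns, the 22 tRNA genes being listed at 0. Of those 15 genes 10 were lower and 2 higher, against 0.792% and 1.38% of all genes. The median log2 ratio was -1.87, or 2.34 below that of all genes. The large ribosomal RNA, mt:lrRNA, was at 203937 and 51169 FPKM. Subunits of complex IV were at 12183 and 3723 FPKM for mt:CoI, 15094 and 4725 FPKM for mt:CoII and 27464 and 7330.4 FPKM for mt:CoIII. Of complex I, mt:ND3 was at 7989 and 961 FPKM and mt:ND4 at 3443 and 541 FPKM, with log2 ratios of -3.05 and -2.67.

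Cytochrome b, mt:Cyt-b, was at 8465 and 1829 FPKM. The higher genes were mt:ATPase8 at 61.7 and 469 FPKM and mt:ND6 at 86.8 and 310.1 FPKM. mt:ATPase8 overlaps mt:ATPase6, which went the other way, at 10775 and 2950.1 FPKM. mt:ND2, at 588 and 462 FPKM, and mt:srRNA, at 36.2 and 34.5 FPKM, stayed within the limits. The genome's share of all summed FPKM was 19.7% in control and 5.54% in regenerating discs at 0 h, 15.2% and 4.27% at 15 h, and 12.8% and 4.62% at 25 h.

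FPKM are shares of a library, so other genes' ratios move with that share. Without the mitochondrial and ribosomal RNA genes the columns summed to 1207463 and 1297516 FPKM, a log2 ratio of 0.10, against 0.47 for the median gene. Of 65 nuclear genes of the respiratory chain and ATP synthase, 0 were called higher (1.38% of all genes) or lower (0.792%). The list's median lay 0.15 below that of all genes. Some nuclear ribosomal RNA genes went the other way, with 3 of 7 tested higher, against 1.38% of all genes. Among the 3 were 28SrRNA:CR45837 at 39.5 and 653 FPKM and 18SrRNA:CR45838 at 127 and 782 FPKM. These RNAs lack the polyA tail of messengers, and their part in the other results was not tested.

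**Figure D3:**
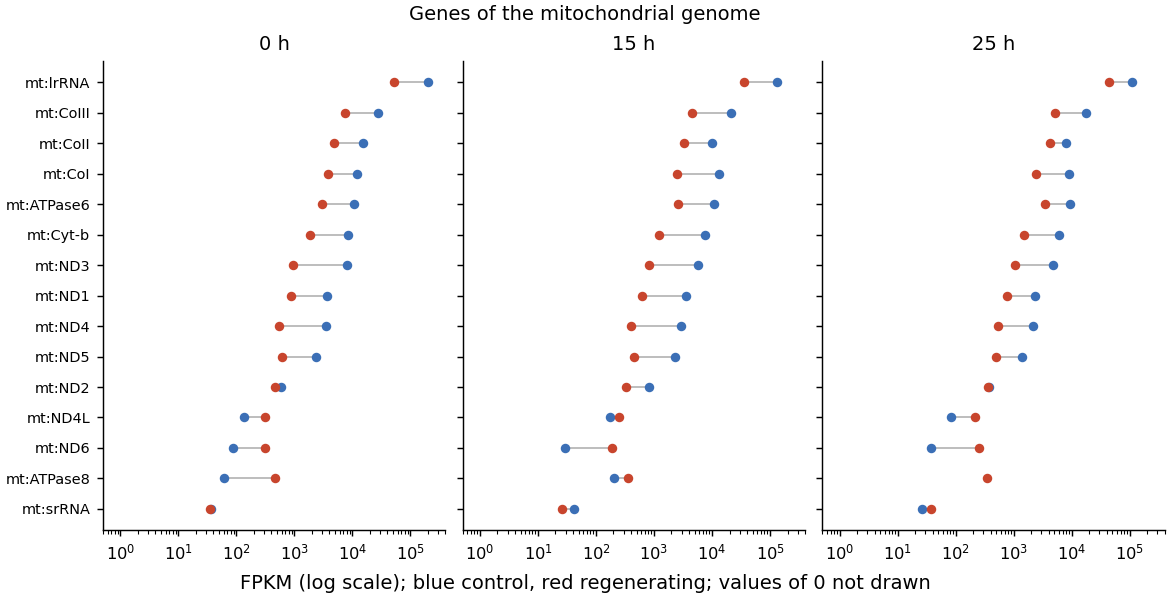
Authors' merged FPKM (x axis, log scale) of the genes of the mitochondrial genome (rows) in control (blue) and regenerating discs (red) at 0, 15 and 25 h (panels). At 0 h, 10 of the 15 genes are called lower, against 0.792% of all genes, and mt:ATPase8 and mt:ND6 are the 2 called higher, against 1.38%.

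Several of the highest ratios belonged to genes outside the damage pathways. Storage protein genes of the fat body, Lsp1gamma (FBgn0002564, chr3L:66430-68995) and Lsp2, were at 3.87 and 41.5 FPKM and 11.6 and 56.1 FPKM. They were also higher in the later regenerating discs, Lsp1gamma at 0.565 and 13.8 FPKM at 15 h and 2.81 and 40.5 FPKM at 25 h. The fat body marker list held 2 higher genes of 9 tested, against 1.38% of all genes, and 7 of 8 at both 15 h and 25 h, against 1.06% and 1.34%. Its summed level was 266 FPKM in control against 414 FPKM in regenerating discs. Over the 3 times the summed level ran from 14.8 to 266 FPKM in control and from 157 to 728 FPKM in regenerating discs. Other fat body markers were within the limits at 0 h, Obp99b at 150.2 and 191 FPKM, Fbp2 at 58.6 and 40.7 FPKM and Lsp1beta at 17.7 and 51.5 FPKM, and AkhR was listed at 0 in both columns. The part of fat body RNA in the other results was not tested.

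Markers of the disc itself were present: all 9 epithelial markers were above 0 in both columns, with a summed level of 166 FPKM in control against 211 FPKM in regenerating discs and none called. None of 6 tested hemocyte markers (summed level 33.8 and 39.4 FPKM), 9 adult muscle precursor markers (53.2 and 69.3 FPKM) or 5 tracheal markers (177 and 280 FPKM) was called. Of 4 tested neuron and glia markers, 1 was higher, against 1.38% of all genes. This was the glutamine synthetase gene Gs2 at 1.66 and 10.5 FPKM, while the neuronal genes brp and nrv3 were listed at 0. The summed level of salivary gland markers was 24.4 FPKM in control against 17.9 FPKM in regenerating discs.

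Genes for structural proteins of differentiated muscle, gathered after their values were seen, were lower in 4 of 12 cases, against 0.792% of all genes; since these genes were chosen for their values, nothing is read from that count. Mlp60A, a muscle LIM protein, was at 13.1 and 2.06 FPKM, the Z-disc gene Zasp66 at 7.3 and 1.57 FPKM, the myosin light chain Mlc1 at 4.29 and 1.37 FPKM and Mp20 at 6.02 and 2.22 FPKM. Act57B, at 16.2 and 14.6 FPKM, and Mlc2, at 21.1 and 24.9 FPKM, stayed within the limits. None of the 4 lower genes was lower by the same rule at 15 or 25 h, as Mlp60A was at 3.88 and 3.72 FPKM at 15 h and 7.30 and 9.40 FPKM at 25 h.

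Cuticle protein genes went both ways, with 3 of 28 higher and 2 lower, against 1.38% and 0.792% of all genes. Cpr49Ah was at 13 and 50.6 FPKM, Edg78E at 0.61 and 3.72 FPKM and Twdlbeta at 1.12 and 5 FPKM. Edg78E passed the filter through the regenerating column alone. The larval cuticle genes Lcp1 and Lcp3, neighbours on 2R among the tested genes, were at 29.2 and 5.23 FPKM and 8 and 1.78 FPKM. Of 17 wound response and matrix genes 1 was higher, against 1.38% of all genes. This was Ddc, dopa decarboxylase, an enzyme of cuticle hardening and dopamine synthesis, at 0.54 and 5.53 FPKM. It passed the filter through the regenerating column alone, and was at 0.65 FPKM or less in each of the 4 later columns. Its exons overlap CG10561.

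The eye colour gene white (w), a transporter gene that many fly transgenes carry as a marker, was higher, at 11.2 FPKM in control against 38.1 FPKM in regenerating discs. It was at 21.1 and 39.2 FPKM at 15 h and 36.9 and 33.5 FPKM at 25 h. Of the dosage compensation and sex determination genes, 1 of 12 was lower, against 0.792% of all genes. This was the male-specific lncRNA:roX2, at 282 and 111 FPKM. Its levels later were 44.7 and 14.1 FPKM at 15 h and 39.1 and 12.4 FPKM at 25 h. roX1, the second RNA of that complex, was within the limits at 0 h, at 83.5 and 112 FPKM. The labels do not give the sexes of the larvae.

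CG32640, an uncharacterised gene on the X chromosome, had the lowest log2 ratio of all called genes, -4.46, at 117 and 4.36 FPKM. CG32641, nearby on that chromosome and of equal exonic length (466 bases), was higher, at 47.7 and 249 FPKM. Summed, the pair was at 165 FPKM in control against 253 FPKM in regenerating discs (log2 ratio 0.61). The same division held at both later times, when CG32640 was at 194 and 16.0 FPKM at 15 h and 165 and 3.64 FPKM at 25 h. CG31775 and CG42586, neighbours on 2L among the tested genes, carried identical values in both columns, 17.3 and 5.37 FPKM. They should be read as 1 observation, and were picked out after their values were seen.

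Of 270 nuclear non-coding genes 12 (4.44%) were higher and 10 (3.7%) lower, against 85 (1.14%) and 39 (0.522%) of 7474 nuclear protein-coding genes. A cluster on 3L (chr3L:19477329-19488439) held 3 higher genes, hpRNA:CR33940 at 20.6 and 168 FPKM, hpRNA:CR32207 at 20.5 and 131 FPKM and CR42842 at 15.3 and 132 FPKM. Hairpin RNAs are precursors of small interfering RNAs. CR42842, annotated as a pseudogene, lies within hpRNA:CR32207 and overlaps its exons, so their values are not independent. lncRNA:CR34335 was lower, at 16637 and 1583 FPKM. Neighbours were taken among the tested genes outside the mitochondrial genome, so other genes may lie between them. In all, 16 pairs of such neighbouring or overlapping genes were called in the same direction. They are not all independent, since exons overlap in some, such as RpL7-like with CG34164 and CG4456 with Hsp22. The share over all neighbouring genes was not computed. Among the 16 were GstD3 and GstD4, ac and sc, Lcp1 and Lcp3, and the uncharacterised CG33333 and CG42834. The last pair was at 3.11 and 29.5 FPKM and 1.37 and 11.3 FPKM and was listed at 0 in all 4 later columns.

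The 15 h and 25 h comparisons rest on libraries of their own and share no sample with the 0 h comparison, although they share the genotypes. At 15 h, 84 (1.06%) of 7949 genes were higher and 66 (0.83%) lower. At 25 h, 100 (1.34%) of 7478 were higher and 210 (2.81%) lower. Of the 110 genes higher at 0 h, 87 were tested at 15 h and 23 were higher again, 26.4% of those tested and 27.4% of the genes higher at 15 h; 1 was lower. At 25 h, 55 were tested, 17 were higher again (30.9%, and 17% of the genes higher at 25 h) and 7 were lower. Another 54 of the 110 were listed at 0 in the 25 h control column.

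Of the 63 genes lower at 0 h, 33 of 55 tested were lower again at 15 h, 60% of those tested and 50% of the genes lower at 15 h. At 25 h, 28 of 46 were lower again, 60.9% of those tested and 13.3% of the genes lower then. Over the genes tested at all 3 times, the median log2 ratio of the higher set was 1.79, 0.86 and 0.33 at 0, 15 and 25 h, for 53 genes. That of the lower set was -1.68, -1.56 and -1.26, for 44 genes. The 0 h values chose both sets, so the smaller later values are a description only.

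**Figure D4:**
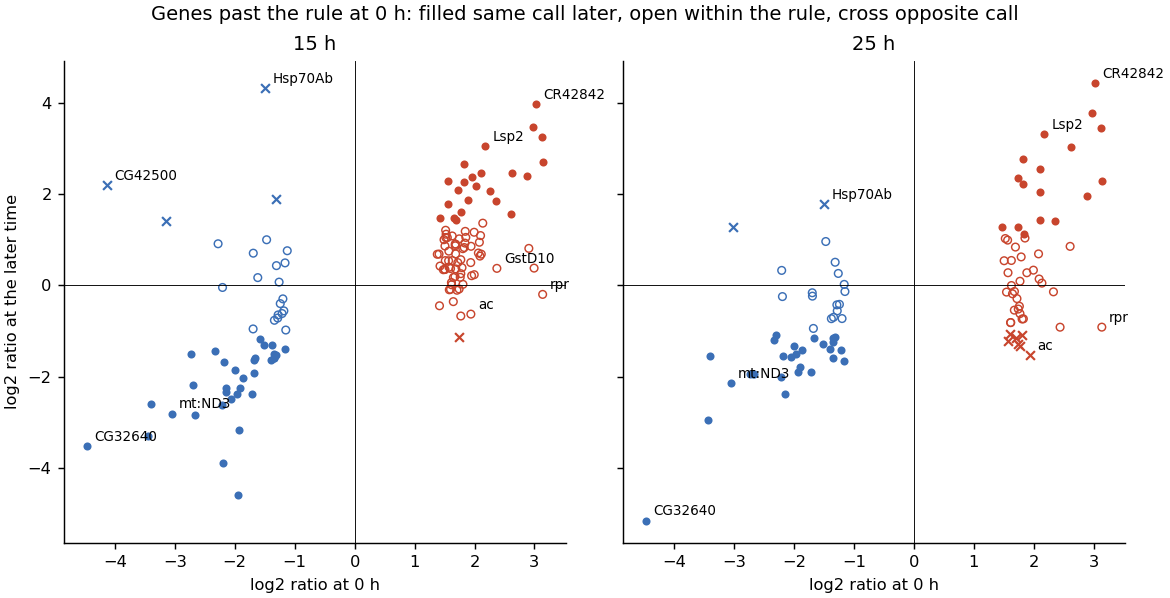
Log2 ratio, regenerating over control, at 0 h (x axis) and at 15 h or 25 h (y axis, panels) for the genes called at 0 h; filled points have the same call later, open points are within the limits and crosses have the opposite call. At 15 h, 33 of the 55 lower genes tested and 23 of the 87 higher genes tested have the same call.

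The 12 genes higher at all 3 times were mt:ND6, Lsp1gamma, Lsp2, CG32641, CG10936, sordd2, CG14715, the 3 genes of the hairpin RNA cluster and the pseudogenes CR44383 and CR40190. No member of the cell death, JNK, glutathione transferase or proneural lists was among them. The 26 genes lower at all 3 times held 9 of the mitochondrial genome, together with CG32640, CG4456, Hsp67Bc, lncRNA:roX2, lncRNA:CR34335 and Spn47C. Of the genes tested at every time, 32 of 53 higher genes and 14 of 44 lower genes had the same call at neither later time. Some of these, such as ac and Hsp70Bb, had the opposite call later.

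The control columns themselves differed between times, so each 0 h regenerating value was also set against all 3 of them. By that measure, added after seeing the data, 63 of the 110 genes remained higher and 26 of the 63 remained lower. Of the 110 higher genes, 54 were listed at 0 in 25 h control discs, and for these that column is easily passed. GstD10, GstD4, GstE3 and Ddc are among the 54. rpr, GstD10, GstD4, GstE3, Ddc and Lsp1gamma passed. Gadd45, GstD3, ac, E(spl)m6-BFM, sc, AsnS and w did not, although the first 4 of these had their highest value of the 6 columns in regenerating discs at 0 h. In 72 of the 110 higher genes the 0 h regenerating column was the highest of the 6, and in 37 the 0 h control column was the lowest. In the lower genes the 0 h control column was the highest of the 6 in 43 of 63, and the 0 h regenerating column the lowest in 14. Both sets were chosen by their 0 h values, which favours extreme 0 h columns, so these counts are a description only.

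**Figure D5:**
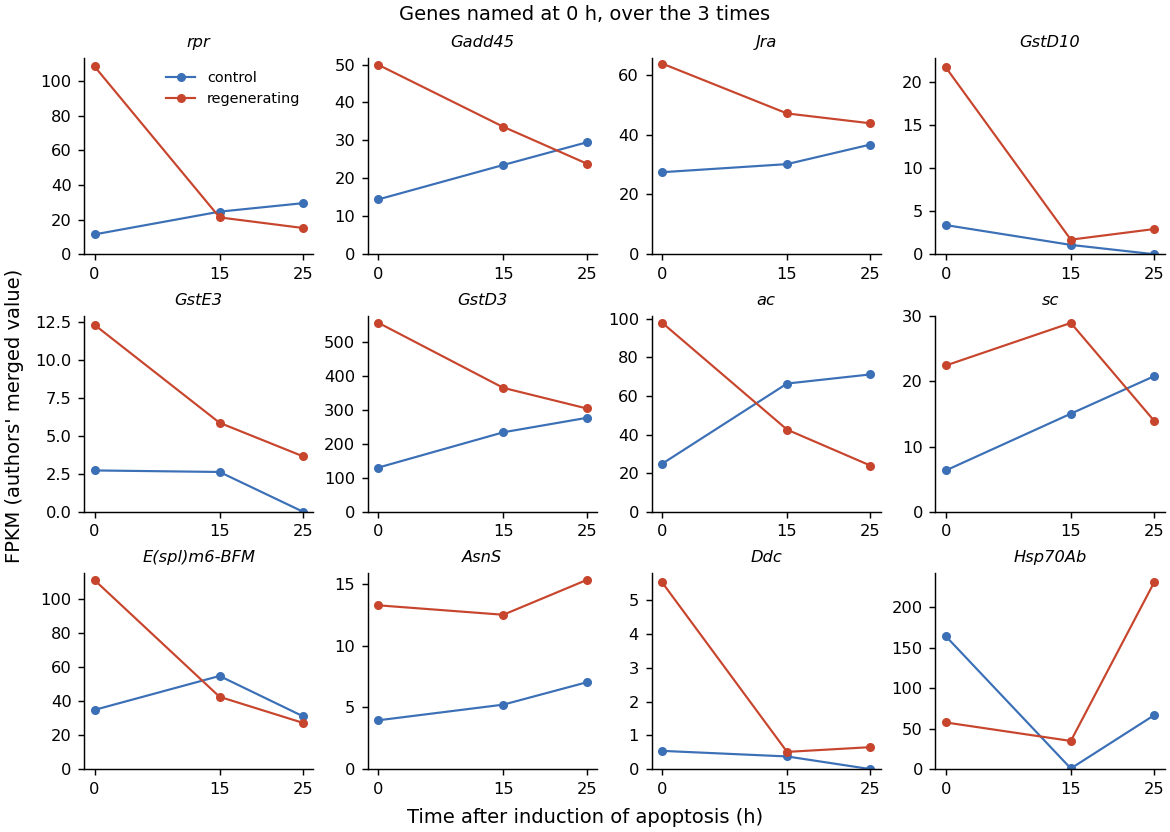
Authors' merged FPKM (y axis, from 0) against time after induction of apoptosis (x axis, h) for genes described in the text, control in blue and regenerating in red; each point is 1 merged value, with no error bar available. rpr is at 108 FPKM in regenerating discs at 0 h and at 21.3 and 15.2 FPKM later, whereas the control values of ac are 24.8, 66.4 and 71.2 FPKM at the 3 times.

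The genes whose levels over the 6 columns were most like those of rpr were Tim8 (Pearson r 0.995), CG11839 (0.994), Tom20 (0.991), AnxB9 (0.989) and Det (0.989), out of 6925 genes with at least 5 FPKM in a column. The correlations are over 6 merged columns of log2(FPKM + 1), and carry no test. Tim8 and Tom20 belong to the mitochondrial protein import machinery, and AnxB9 is an annexin. Tim8 was at 149.8 and 379 FPKM at 0 h and at 187 and 190.4 FPKM at 15 h and 217 and 165 FPKM at 25 h. None of the 5 was called at 0 h, and the AnxB9 values, 339.5 and 556 FPKM, show how small the differences behind such an r can be.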

How the data were processed

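PolyA RNA of wing discs was extracted with Zymo kits and made into Illumina TruSeq libraries, per the labels' protocols, in 6 groups of 2 libraries. The authors deposited gene-level FPKM with 1 column for each group, the replicates merged; the sources used here do not say how. STAR 2.4.0j, RSEM and the build dm6 are named in the submitters' processing notes, without their roles. A further column of the table matches no sample's labels and was not used. In the 0 h regenerating column 4004 values were whole numbers of at least 1000; the 4003 of them ending in 5 (46.4% of the values above 0) were taken as having lost the decimal point and were divided by 1000, and His3.3B, at 1520, was kept. Among the 8391 genes, those at 1 FPKM or more in that column had a median log2 ratio of 0.48 whether the value was restored (3963 genes) or not (3942). The 0 h control column holds no more than 2 decimals, so whether its values are means of 2 libraries cannot be told. The Spearman correlation of the 0 h columns was 0.977 across genes.

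Log2 ratios are of FPKM + 1 (pseudocount 1), which understates the change of low genes. A call needed 2-fold in each of 3 scalings and at least 1 FPKM in 1 or both columns. The planned design held a replicate test for replicate columns and this rule of size for merged ones; the second applied. Named genes were the 15 highest and 15 lowest called ratios at 5 FPKM or more, every called list member, the 3 members of each list furthest from the median ratio, 11 fixed genes and the 5 most like rpr; a part of these is printed. The genes compared and the 48 lists (1194 of 1212 symbols matched) were chosen with earlier results of these data known. Symbols and coordinates are from the Ensembl 115 annotation of BDGP6.54, which has dm6 coordinates, and were found for 16912 of 17158 genes. Alternatives covered scaling, pseudocount, filter, size of fold, restored values and gene classes. The scripts (Python 3.11.15, pandas 2.3.3, numpy 2.4.6, scipy 1.17.1) were tested on simulated data.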

Additional observations from a re-analysis of the deposited data

Results flagged for a closer look

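Some genes called at 0 h had the opposite call at a later time, in libraries of other discs; with 1 merged column per group the difference between times was not tested. Hsp70Ab had a log2 ratio of -1.49 at 0 h, then 4.32 and 1.78 at the later times. Hsp70Bb, a near-identical copy, was at -1.31 at 0 h and 1.89 at 15 h, and Hsp70Bbb at -3.01 at 0 h and 1.28 at 25 h. ac was at 1.94 at 0 h and -1.54 at 25 h. PCNA2 had 1.74 at 0 h, then -1.12 and -1.29, and His3.3B, a gene for a histone H3 variant, at 1.6 at 0 h and -1.08 at 25 h. Among uncharacterised genes, CG5235 (1.58), CG11920 (1.71), CG18336 (1.77) and CG15212 (1.81) were higher at 0 h and lower at 25 h, at log2 ratios of -1.21, -1.16, -1.33 and -1.08. CG34227 (-3.15) and CG42500 (-4.14) were lower at 0 h and higher at 15 h, at 1.4 and 2.19.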

How the results depend on the processing

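No paired analysis was possible because each group has a single merged column; leaving out replicates and a replicate block were not run for the same reason. The counts of 110 higher and 63 lower genes became 546 and 71 with the values as deposited only, 110 and 181 about the median ratio only, and 881 and 63 at equal column sums only. With a pseudocount of 0.1 FPKM they were 286 and 85, and with 5 FPKM 39 and 46. A 1.5-fold rule gave 456 and 130, and a 4-fold rule 13 and 20. Over genes with no restored value they were 49 and 40, and over nuclear protein-coding genes 85 and 39, since fewer genes were tested. A 5 FPKM filter gave 84 and 59. Removing the filter could not change the counts, since with a pseudocount of 1 FPKM genes below 1 FPKM in both columns cannot reach 2-fold. Alternatives chosen after seeing the data gave 357 and 84 at equal sums without mitochondrial genome and rRNA genes, 63 and 26 against the control columns of all 3 times, and 105 and 53 with those gene classes left out. The median log2 ratio of 0.47 was 0.013 about the median ratio, 0.59 at equal sums and 0.34 with a pseudocount of 5 FPKM. The balance of higher to lower calls turned about the median ratio, with the 5 FPKM pseudocount and with the 4-fold rule; no median changed sign. Over the named genes, under the alternatives of scaling, pseudocount, restored values and gene classes, 1378 values kept their side of the limits, 106 newly passed and 15 no longer passed, and no called gene among them changed sign; of the list counts, 1168 held and 176 moved. Read depth is unknown and no replicate spread could be computed, so genes near the limits cannot be separated from noise.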

Other observations

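Genes of chromosome 4, the small heterochromatic chromosome, had a median log2 ratio of 0.24 over 67 genes at 0 h, 0.23 below that of all genes, while the medians of the other arms lay between 0.46 and 0.48. None of the 67 was called. At 15 and 25 h the medians on chromosome 4 were -0.20 and -0.62. Among the other genes higher at 0 h were those of ubiquitin (Ubi-p5E, 123 and 362 FPKM), a globin (glob1, 5.38 and 20.8 FPKM), the Nse4 subunit of the SMC5/6 complex (10.7 and 39.9 FPKM) and the kinetochore protein Kmn1 (47.1 and 165 FPKM); these were picked out after their values were seen. The 229 genes listed at 0 in control discs only reached at most 101 FPKM in regenerating discs, and the 1302 listed at 0 in regenerating discs only reached at most 15.3 FPKM in control discs. A value listed at 0 is not evidence that the gene was silent.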
